A study of Homo sapiens with 18 samples.

Results

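This account covers 9 genes of the VEGF, PDGF and KIT signalling systems in human stem cells turned into neural ectoderm. They are the VEGF receptors KDR, FLT1 and FLT4, the stem cell factor receptor KIT and its ligand KITLG, the PDGF receptors PDGFRA and PDGFRB, and the ligands PDGFA and VEGFA. The members were taken by gene symbol, and all 9 were found among the 37550 rows of the table and among the 17033 genes tested. KDR was chosen by its measured TPM values, because its difference between the 2 origins of the cultures reversed between day 2 and day 4. Its values are therefore given as a description, with no test. The other 8 genes were taken as the same receptor and ligand families, with earlier results of these data known.

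The libraries were 18 poly-A RNA libraries of the wild-type H1 line, an established human embryonic stem cell line, in 9 groups of 2 biological replicates. Undifferentiated cells (hPSC) were collected at day 0. All other cells spent day 1 in an ectoderm medium with A8301 at 1 µM, LDN193189 at 100 nM, the MEK inhibitor trametinib at 250 nM and C59 at 1 µM. On day 2, anterior neural ectoderm (aNE) received A8301 at 1 µM, LDN193189 at 100 nM, C59 at 1 µM, a blocker of WNT secretion, and thiazovivin at 1 µM. Posterior neural ectoderm (pNE) received A8301 at 1 µM and LDN193189 at 100 nM with the retinoid TTNPB at 50 nM, FGF2 at 20 ng/mL, XAV939 at 1 µM and thiazovivin at 1 µM. Cells of both origins were also carried to day 4 in forebrain medium (aNE_T, pNE_T), midbrain medium (aNE_M, pNE_M) or hindbrain medium (aNE_H, pNE_H). The forebrain medium held XAV939 at 1 µM, LDN193189 at 100 nM and FGF2 at 20 ng/mL on day 3, and the other media are not described here. Cells collected at day 2 were plated at 37500 per cm2, and for day 4 aNE cultures were plated at 75000 and pNE cultures at 150000 per cm2. At day 4 an effect of origin and one of density cannot be told apart. Plating density was also higher for day 4 than for day 2 in each origin, and more so for pNE. An effect of density therefore cannot be told apart from the day-2 to day-4 changes or from their differences between the origins. All groups come from 1 cell line, so the replicates measure the spread between cultures of that line.

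These receptors are tyrosine kinases of the cell surface that dimerise when a growth factor binds and then pass the signal to shared adaptor proteins. KDR (VEGFR2) is the main receptor through which VEGFA acts on endothelial cells, FLT1 (VEGFR1) binds VEGFA tightly with weaker kinase activity, and FLT4 (VEGFR3) binds VEGFC and VEGFD in lymphatic vessels. KIT with KITLG acts in germ cells, blood progenitors and melanoblasts, and PDGFRA and PDGFRB bind PDGF dimers in mesenchyme, glial progenitors and the mural cells of vessels. KDR and KIT are also known from human pluripotent stem cells, and VEGFA from the neural tube, which it leads vessels into.

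Values are in TPM, a transcript abundance scaled for library size and transcript length, so levels can be compared between genes. The read depth is unknown. The libraries held 19239 to 21235 genes above 0 TPM, and all 18 correlated best with the other library of their group. The labels were checked against defining genes. The summed level of 4 pluripotency genes (POU5F1, NANOG, TDGF1, DNMT3B) was 4799 and 4821 TPM in the hPSC libraries and at most 609.7 TPM elsewhere. Of the neural genes, SOX2 was at 70.4 TPM or more in every library. In hPSC it was at 194 and 188 TPM, so it does not separate neural from undifferentiated cells. Of 6 neural genes, 4 were called higher and 0 lower in pNE against hPSC, and the same numbers in aNE against hPSC. Against aNE, 0 were called higher and 4 lower in aNE_M and in aNE_H (median log2 differences of -2.27 and -2.06), and 2 higher and 1 lower in aNE_T. Against pNE, 1 was higher and 1 lower in pNE_T, 0 and 2 in pNE_M and 1 and 2 in pNE_H. In pNE, LHX5 was at 38.7 and 51.1 TPM and CDH2 at 95.3 and 96.6 TPM, but PAX6 was at 1.34 and 2.54 TPM and SOX1 at 1.05 and 1.22 TPM. PAX6 was lowest after day 0 in pNE_M, at 0.508 and 0.232 TPM, and SOX1 in pNE_H, at 0.0851 and 0.131 TPM. The neural gene HES5 did not exceed 1.25 TPM in any library. A fall in a bulk library can mean fewer cells of a type or less RNA per cell, which cannot be told apart here.

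A gene was called when limma gave an adjusted p under 0.05 and a difference of at least 1 on the log2(TPM + 1) scale. The ± after a log2 difference is limma's standard error. Counts of calls are over the 8 members other than KDR and stand beside the share of all 17033 tested genes that were called. On entry to neural ectoderm, 2 members were called in aNE against hPSC (all genes, 13.5%) and 4 in pNE against hPSC (12.9%). Both comparisons use the same hPSC libraries. Between the origins, 2 were called at day 2 (3.85% of all genes, 2.37% higher), 2 at day 4 in forebrain medium (7.77% of all genes, 3.79% higher), 1 in midbrain medium (5.74% of all genes, 3.19% higher) and 2 in hindbrain medium (6.83% of all genes, 3.92% higher), all higher in pNE or pNE-derived cells. From day 2 to day 4, aNE-derived cells had 4 calls in forebrain medium (9.03%), 4 in midbrain medium (12%) and 3 in hindbrain medium (10.1%). In pNE-derived cells these numbers were 3 (10.2%), 4 (12.7%) and 3 (12.3%). Each set of 3 media shares its day-2 libraries. The interaction is the day-2 to day-4 change of pNE-derived cells minus that of aNE-derived cells. It was called for 1 member in forebrain medium (all genes, 7.14%) and 2 in hindbrain medium (7.83%). In midbrain medium limma called 0 (7.02%), with 3 members at an unadjusted p under 0.05. Without aNE_M replicate 1 it called VEGFA there (1.10) and PDGFA (1.10), and PDGFA was also called without pNE replicate 2 (1.01) or pNE_M replicate 2 (1.07). FLT4 and PDGFRA were called in 0 of the 21 comparisons, with 6 and 3 of them at an unadjusted p under 0.05.

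KDR was highest in stem cells and then followed opposite courses in the 2 origins. It was at 53.9 and 52.4 TPM in hPSC, 3.35 and 3.56 TPM in aNE and 20.9 and 17.6 TPM in pNE. In aNE-derived cells at day 4 it was at 18.8 and 19.1 TPM in forebrain medium, 5.13 and 6.70 TPM in midbrain medium and 13.7 and 13.3 TPM in hindbrain medium. In pNE-derived cells it was at 1.19 and 1.05, 0.133 and 0.289 and 2.85 and 3.81 TPM in the same media. All 6 aNE-derived libraries were above both aNE libraries, and all 6 pNE-derived libraries were below both pNE libraries. At day 2 the level in pNE was 5.57 times that in aNE, a difference of 2.18 on the log2 scale. At day 4 the difference of pNE-derived from aNE-derived cells was -3.24 in forebrain medium, -2.51 in midbrain medium and -1.75 in hindbrain medium. The midbrain value was -4.31 with a pseudocount of 0.1.

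The group means of KDR ran in the order hPSC, pNE, aNE_T, aNE_H, aNE_M, aNE, pNE_H, pNE_T and pNE_M. The libraries of pNE and aNE_T overlapped, as did those of aNE and pNE_H, and all other neighbours in this order were separate. The highest group mean was 251 times the lowest. In both origins the lowest day-4 level was in midbrain medium. The highest was in forebrain medium in aNE-derived cells and in hindbrain medium in pNE-derived cells.

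**Figure D1:**
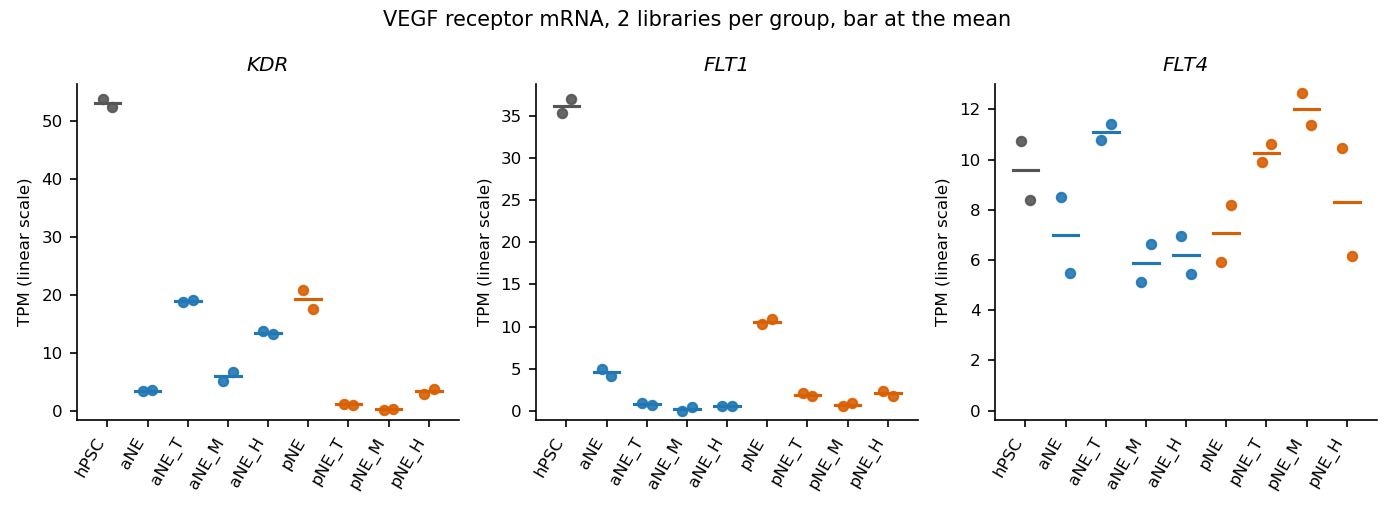
TPM (linear vertical axis) of KDR, FLT1 and FLT4 in each of the 9 groups on the horizontal axis, with 1 point per library and a bar at the group mean. KDR is at 52.4 TPM or more in hPSC and lies higher in the aNE-derived groups than in aNE but lower in the pNE-derived groups than in pNE, FLT1 falls at each stage, and FLT4 stays between 5.14 and 12.7 TPM.

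FLT1 fell at every stage in both origins. It was at 35.4 and 37.0 TPM in hPSC, 5.01 and 4.11 TPM in aNE and 10.3 and 10.9 TPM in pNE. It was at 0.892 and 0.640 TPM in aNE_T, 0.0198 and 0.379 TPM in aNE_M and 0.591 and 0.580 TPM in aNE_H. It was at 2.05 and 1.69 TPM in pNE_T, 0.528 and 0.892 TPM in pNE_M and 2.37 and 1.78 TPM in pNE_H. No day-4 library reached the lowest day-2 library, and no day-2 library reached hPSC. Against hPSC the log2 difference was -2.75 ± 0.19 (adjusted p = 1.5e-07) in aNE and -1.68 ± 0.19 (adjusted p = 1.37e-05) in pNE. From day 2 to day 4 the differences lay between -2.77 (pNE_M) and -1.65 (aNE_T), and FLT1 was called lower in all 6 of these comparisons. At day 2 FLT1 in pNE exceeded that in aNE by 1.07 ± 0.19 (adjusted p = 0.00179). That call was lost without aNE replicate 2, where the difference was 0.95, and with a pseudocount of 0.1 (adjusted p = 0.139). At day 4 the differences between origins of 0.70, 0.52 and 0.95 in forebrain, midbrain and hindbrain medium did not reach 1 in size, at levels of at most 2.37 TPM. The hindbrain difference was called without pNE_H replicate 2 (1.09). With a pseudocount of 0.1 it was called in hindbrain medium (1.65) and midbrain medium (1.72). KDR and FLT1 both had more RNA in pNE than in aNE at day 2. At day 4 the sign of the difference between origins had turned for KDR and was the same as before for FLT1.

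FLT4 stayed within a narrow range. It was at 10.8 and 8.38 TPM in hPSC, 8.50 and 5.47 TPM in aNE and 5.92 and 8.20 TPM in pNE. Over the 12 day-4 libraries the lowest was 5.14 TPM in aNE_M, the median 10.2 TPM and the highest 12.7 TPM in pNE_M. The difference between origins with the smallest adjusted p was in midbrain medium, where FLT4 was higher in pNE_M by 0.93 ± 0.24 (adjusted p = 0.0184) and missed the size limit of 1. It passed without aNE_M replicate 2, at 1.08, and with a pseudocount of 0.1, at 1.03. At day 2 the difference was 0.03 ± 0.24 (adjusted p = 0.978).

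The promoters of KDR and FLT1 are shown because both genes were lower in either kind of ectoderm than in hPSC, and those of KIT and KITLG because both genes were higher in pNE_T and pNE_H than in the aNE-derived cells of the same medium. Each is the 250 bases before the RefSeq start on GRCh38.p14, read 5′ to 3′ on the strand of the gene. Capitals mark the GC box GGGCGG, searched on both strands.
KDR, chr4:55125596-55125845, minus strand: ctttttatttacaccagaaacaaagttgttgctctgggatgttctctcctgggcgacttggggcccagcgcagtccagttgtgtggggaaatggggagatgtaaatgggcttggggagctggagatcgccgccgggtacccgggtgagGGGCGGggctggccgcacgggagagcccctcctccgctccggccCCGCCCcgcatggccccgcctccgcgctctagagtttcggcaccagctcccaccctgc
FLT1, chr13:28495129-28495378, minus strand: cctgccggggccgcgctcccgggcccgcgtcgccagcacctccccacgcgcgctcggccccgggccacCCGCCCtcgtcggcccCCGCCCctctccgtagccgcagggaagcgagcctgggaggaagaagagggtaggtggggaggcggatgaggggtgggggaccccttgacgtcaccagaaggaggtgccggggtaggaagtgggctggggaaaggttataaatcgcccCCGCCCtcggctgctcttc
KIT, chr4:54657707-54657956, plus strand: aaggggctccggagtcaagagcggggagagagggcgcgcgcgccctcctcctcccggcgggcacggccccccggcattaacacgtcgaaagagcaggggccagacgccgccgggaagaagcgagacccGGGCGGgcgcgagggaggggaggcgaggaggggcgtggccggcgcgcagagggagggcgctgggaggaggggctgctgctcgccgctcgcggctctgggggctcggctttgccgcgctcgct
KITLG, chr12:88580472-88580721, minus strand: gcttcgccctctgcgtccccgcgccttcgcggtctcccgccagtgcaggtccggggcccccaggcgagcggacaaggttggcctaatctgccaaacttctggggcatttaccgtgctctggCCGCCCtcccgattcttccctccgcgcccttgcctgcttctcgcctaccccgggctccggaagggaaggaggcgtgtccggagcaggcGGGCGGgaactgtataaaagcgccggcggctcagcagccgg
The GC box matched at 2 places for KDR, 3 for FLT1, 1 for KIT and 2 for KITLG, and 42.6% of all 35116 promoters of this length held at least 1. TATAAA on either strand matched once for FLT1 and once for KITLG and for neither KDR nor KIT, against 10.7% of all promoters. ACGTG, the core of the hypoxia response element, matched once for KIT and in none of the other promoters shown, against 18.5% of all promoters. The GC content was 65.2%, 73.2%, 76.4% and 69.2% in the order shown, against a median of 58.0% over all promoters. These matches describe letters in the sequence and show no binding.

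Endothelial genes were read beside KDR because KDR is best known from that lineage. Of 12 such genes (CDH5, PECAM1, TEK, TIE1, ERG, ETV2, SOX17, SOX18, EMCN, CLDN5, ESAM, VWF), 8 passed the filter. Their summed level was 17.5 and 17.9 TPM in hPSC, 40.3 and 41.8 TPM in aNE and 17.8 and 19.6 TPM in pNE. At day 4 it was 46.7 and 48.4 TPM in aNE_T, 18.3 and 22.0 TPM in aNE_M and 31.1 and 34.5 TPM in aNE_H. It was 49.7 and 51.7 TPM in pNE_T, 23.3 and 26.5 TPM in pNE_M and 23.3 and 23.8 TPM in pNE_H. The sum was highest in pNE_T, where KDR was at 1.19 and 1.05 TPM, and was lower in hPSC, where KDR was highest. TEK, the angiopoietin receptor, was the largest part in aNE and aNE_T, at 22.2 and 21.1 and 26.3 and 24.7 TPM. PECAM1 did not exceed 1.02 TPM in any library, and SOX17 was listed at 0 in both libraries of hPSC, pNE, pNE_M and the 3 aNE-derived groups. SOX17 was highest in pNE_H, at 1.41 and 0.928 TPM. CDH5, the cadherin of endothelial junctions, was at 22.8 and 23.3 TPM in pNE_T, 5.86 and 6.50 TPM in pNE_H, 4.28 and 3.52 TPM in aNE_T and at most 0.845 TPM in the other groups. From aNE to aNE_T, where KDR was higher, 4 of the 8 tested endothelial genes were called higher and 1 lower (all genes, 9.03%). The median was 0.75 on the log2 scale against 0.00 over all genes. KDR was also higher in aNE_M and aNE_H than in aNE. There 0 endothelial genes were called higher, and 2 and 1 lower (12% and 10.1%). Against pNE, where KDR fell, 2 were higher and 1 lower in pNE_T (10.2%). These numbers were 0 and 2 in pNE_M (12.7%) and 1 and 0 in pNE_H (12.3%). VWF was at 11.7 and 15.2 TPM in aNE and 2.70 and 1.83 TPM in aNE_T. ERG, an endothelial transcription factor, was at 4.77 and 5.34 TPM in hPSC, 0.863 and 1.76 TPM in aNE and 5.68 and 4.76 TPM in aNE_T. TIE1 was, like KDR, highest in hPSC, at 6.01 and 5.08 TPM, and higher in aNE_T (2.20 and 1.68 TPM) than in aNE (0.514 and 0.224 TPM). Its libraries overlapped between pNE (0.554 and 1.44 TPM) and pNE_T (0.874 and 2.11 TPM). EMCN was at 0.682 and 0.225 TPM in aNE and 3.70 and 5.57 TPM in aNE_T, but at 0 and 0.237 TPM in hPSC. The part of these genes in the course of KDR was not tested. Of 8 blood genes, the summed level did not exceed 14.2 TPM in any library, and GATA1 and SPI1 stayed at or under 0.227 TPM. CD34, a gene of blood progenitors and endothelium, was at 6.27 and 8.25 TPM in pNE_T, 6.58 TPM or more in pNE_M and 3.61 and 4.17 TPM in pNE_H, and at most 0.687 TPM in the other groups. KDR is also known from early mesoderm, and 10 mesoderm genes summed to 96.0 and 118 TPM in aNE_M, to 4.44 and 4.54 TPM in aNE and to 3.81 and 4.27 TPM in aNE_T. They summed to 25.2 and 25.5 TPM in hPSC, 2.87 and 3.24 TPM in aNE_H and 9.42 and 10.6 TPM in pNE. In pNE_T the sum was 21.1 and 25.5 TPM, in pNE_M 48.6 and 48.9 TPM and in pNE_H 22.9 and 23.3 TPM. Most of the aNE_M sum was MIXL1, at 78.0 and 94.9 TPM, while TCF15 was highest in hPSC, at 20.2 and 19.9 TPM, and MEOX1 in pNE_M, at 23.9 and 28.1 TPM. TBXT, the defining gene of the primitive streak, did not exceed 4.01 TPM.

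VEGFA rose in both kinds of ectoderm, and at day 4 it was lowest in midbrain medium. It was at 24.9 and 21.8 TPM in hPSC, 68.6 and 62.3 TPM in aNE and 67.0 and 66.8 TPM in pNE. At day 4 it was at 38.1 and 45.6 TPM in aNE_T, 16.3 and 11.0 TPM in aNE_M and 38.2 and 39.8 TPM in aNE_H. It was at 68.0 and 64.8 TPM in pNE_T, 27.0 and 23.6 TPM in pNE_M and 43.8 and 41.3 TPM in pNE_H. The 4 midbrain-medium libraries lay below the 8 others of day 4, and pNE_T was the only day-4 group whose libraries overlapped those of day 2. Its rise over hPSC measured 1.45 ± 0.14 (adjusted p = 4.97e-06) for aNE and 1.48 ± 0.14 (adjusted p = 4.28e-06) for pNE. In midbrain medium it was lower than at day 2, with log2 differences of -2.20 ± 0.14 (adjusted p = 9.01e-08) in aNE-derived and -1.37 ± 0.14 (adjusted p = 8.07e-06) in pNE-derived cells. Against forebrain medium the midbrain difference was -1.57 ± 0.14 (adjusted p = 2.54e-06) in aNE-derived cells (1 member called, all genes 10.1%) and -1.36 ± 0.14 (adjusted p = 1.19e-05) in pNE-derived cells (2 members called, 8.6%). Hindbrain medium exceeded midbrain medium by 1.47 ± 0.14 (adjusted p = 1.12e-05) in aNE-derived cells (2 members called, 4.92%). In pNE-derived cells the difference was 0.73 ± 0.14 (adjusted p = 0.00294), under the size limit (2 members called, 5.99%). At day 2 the origins differed by 0.03 ± 0.14 (adjusted p = 0.933). In forebrain and midbrain medium VEGFA was higher in pNE-derived cells by 0.66 ± 0.14 (adjusted p = 0.00496) and 0.87 ± 0.14 (adjusted p = 0.000892), which passed in p and not in size. Without aNE_M replicate 1 the midbrain difference was 1.13 and was called.

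VEGFA is a known target of the hypoxia response, so 12 other hypoxia-responsive genes were set beside it. In aNE against hPSC, where VEGFA rose, 1 of the 12 was called higher and 4 lower (all genes, 13.5%). The median log2 difference was -0.27 against 0.06 over all genes. In pNE against hPSC, 2 were higher and 2 lower (12.9%), with a median of -0.09 against 0.05. From aNE to aNE_M, where VEGFA fell, 2 were higher and 2 lower (12%). From pNE to pNE_M, 0 were higher and 3 lower (12.7%). The medians were 0.07 and 0.18 against -0.02 and -0.06. Any part of the hypoxia response in the levels of VEGFA was not tested. ADM, a vasodilator peptide, was at 246 and 259 TPM in pNE against 28.2 and 33.9 TPM in aNE, a difference of 2.99 ± 0.11 (adjusted p = 2.58e-09), beside 0.03 for VEGFA. In aNE_M, ADM was at 2.06 and 1.41 TPM and lower than in aNE by 3.56 ± 0.11 (adjusted p = 1.16e-10). SLC2A1, a glucose transporter, was at 1076 and 864 TPM in aNE_M against 241 and 224 TPM in aNE and rose by 2.05 ± 0.11 (adjusted p = 1.57e-08) where VEGFA fell. EGLN3, an oxygen-sensing hydroxylase, moved with VEGFA there. It was at 16.8 and 12.9 TPM in hPSC, 73.7 and 77.1 TPM in aNE and 8.51 and 9.96 TPM in aNE_M, a rise of 2.28 ± 0.14 (adjusted p = 4.26e-08) and then a fall of 2.90 ± 0.14 (adjusted p = 3.27e-09).

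**Figure D2:**
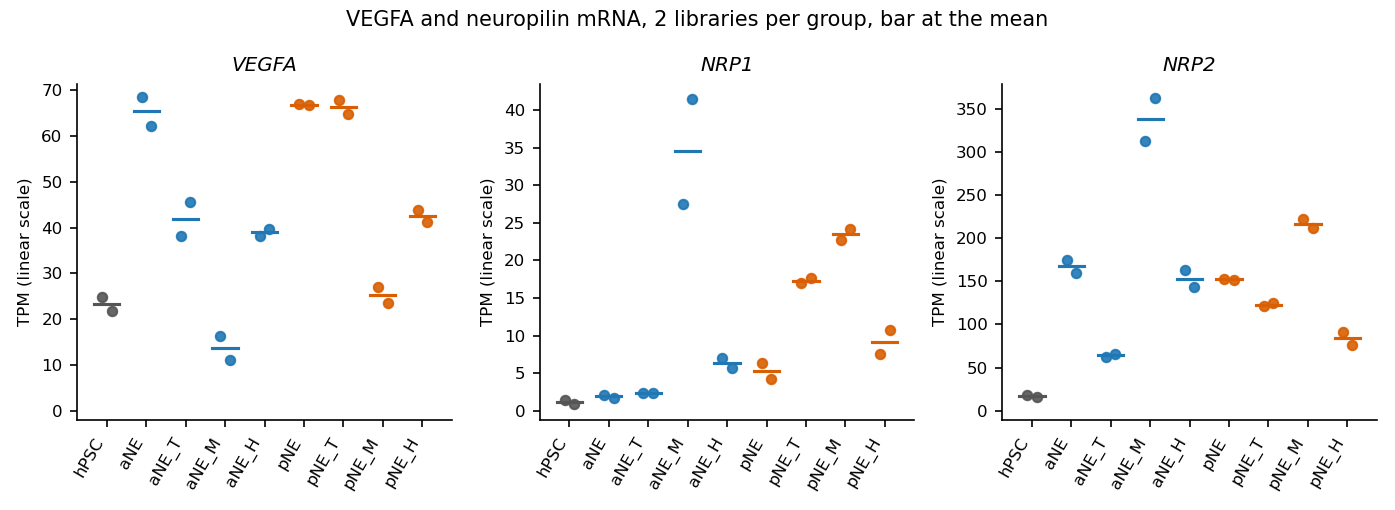
TPM (linear vertical axis) of VEGFA and its co-receptors NRP1 and NRP2 in the 9 groups, with 1 point per library and a bar at the group mean. In midbrain medium VEGFA lies between 11.0 and 27.0 TPM, its lowest of day 4, while both neuropilins reach their highest value of each origin.

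The neuropilins, co-receptors for VEGFA and for semaphorins, were highest in midbrain medium, where VEGFA was at its lowest of day 4. NRP2 was at 18.5 and 15.9 TPM in hPSC, 175 and 160.1 TPM in aNE and 153 and 152 TPM in pNE, a rise of 3.21 ± 0.10 (adjusted p = 1.57e-10) and 3.08 ± 0.10 (adjusted p = 1.83e-10). It was at 313 and 362 TPM in aNE_M against 62.7 and 65.9 TPM in aNE_T, a difference of 2.37 ± 0.10 (adjusted p = 1.95e-09). NRP2 was thus more abundant than KDR, FLT1 and FLT4 together in all 16 libraries after day 0. NRP1 was at 2.10 and 1.74 TPM in aNE, 2.40 and 2.38 TPM in aNE_T and 27.6 and 41.5 TPM in aNE_M. It was at 6.37 and 4.16 TPM in pNE, 17.0 and 17.6 TPM in pNE_T and 22.8 and 24.2 TPM in pNE_M. From day 2 to midbrain medium the rise of NRP1 was 3.58 ± 0.23 (adjusted p = 6.09e-08) for aNE-derived and 1.99 ± 0.23 (adjusted p = 1.53e-05) for pNE-derived cells, and the interaction was -1.59 ± 0.32 (adjusted p = 0.00458). In forebrain medium NRP1 was higher in pNE_T than in aNE_T by 2.43 ± 0.23 (adjusted p = 3.85e-06).

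Of the other VEGF ligands, PGF, which binds FLT1, was higher in pNE-derived cells in forebrain and hindbrain medium. It was at 24.9 and 25.4 TPM in pNE_T against 2.97 and 2.71 TPM in aNE_T, a difference of 2.77 ± 0.14 (adjusted p = 1.51e-08), and at 19.8 and 18.2 TPM in pNE_H against 4.78 and 5.23 TPM in aNE_H, a difference of 1.73 ± 0.14 (adjusted p = 1.53e-06). In midbrain medium it was at 5.60 and 4.35 TPM in pNE_M against 6.37 and 5.87 TPM in aNE_M, a difference of -0.26 ± 0.14 (adjusted p = 0.272) that did not pass. The interaction for PGF was 2.08 ± 0.20 (adjusted p = 1.3e-05) in forebrain medium and 1.05 ± 0.20 (adjusted p = 0.00308) in hindbrain medium. VEGFC, a ligand of FLT4, was at 4.99 and 4.45 TPM in pNE_T and 4.31 and 4.52 TPM in pNE_H and at most 1.05 TPM in hPSC, aNE, pNE and the aNE-derived groups. VEGFD did not exceed 0.398 TPM. VEGFB was at 19.9 and 21.6 TPM in hPSC and 6.86 and 6.02 TPM in pNE, where it was lower by 1.55 ± 0.24 (adjusted p = 0.000191). Of these 6 genes 5 passed the filter. Of the 5, 3 were called higher in pNE-derived cells in forebrain medium (all genes, 3.79%), 1 in midbrain medium (3.19%) and 2 in hindbrain medium (3.92%), and 0 were called lower in any of the 3. Their median differences were 1.54, -0.51 and 0.46 in these media, against -0.05, -0.04 and -0.04 over all genes.

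KIT and its ligand were both higher in pNE-derived cells in forebrain and hindbrain medium, and KITLG was also higher at day 2. KIT was at 9.50 and 13.1 TPM in hPSC, 5.95 and 5.51 TPM in aNE and 5.31 and 5.66 TPM in pNE. In the day-4 groups it was at 2.84 and 1.91 TPM in aNE_T, 2.95 and 3.15 TPM in aNE_M and 2.53 and 3.41 TPM in aNE_H. It was at 22.0 and 29.1 TPM in pNE_T, 4.59 and 5.33 TPM in pNE_M and 8.93 and 13.5 TPM in pNE_H. All 6 aNE-derived libraries were below every pNE-derived library, and pNE_T was above every other group. Between the origins the log2 difference was -0.05 ± 0.22 (adjusted p = 0.924) at day 2, 2.98 ± 0.22 (adjusted p = 3.75e-07) in forebrain medium, 0.56 ± 0.22 (adjusted p = 0.110) in midbrain medium and 1.60 ± 0.22 (adjusted p = 0.000132) in hindbrain medium. The interaction of 3.03 ± 0.31 (adjusted p = 1.84e-05) in forebrain medium and 1.66 ± 0.31 (adjusted p = 0.00230) in hindbrain medium passed the test, and that of 0.61 ± 0.31 (adjusted p = 0.235) in midbrain medium did not. Against hPSC the differences of -0.85 ± 0.22 (adjusted p = 0.00681) in aNE and -0.91 ± 0.22 (adjusted p = 0.00511) in pNE missed the size limit. Without hPSC replicate 1 both were called, at -1.06 and -1.12. The second was also called with quantile normalization (-1.05) and with a pseudocount of 0.1 (-1.01).

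From pNE to pNE_T, KIT rose by 2.02 ± 0.22 (adjusted p = 1.21e-05). From pNE to pNE_H the difference was 0.89 ± 0.22 (adjusted p = 0.00590), which was called without pNE_H replicate 1 (1.16) and with quantile normalization (1.02). Within pNE-derived cells it was lower in midbrain than in forebrain medium by 2.15 ± 0.22 (adjusted p = 7.35e-06). Hindbrain medium differed from forebrain medium by -1.13 ± 0.22 (adjusted p = 0.00258), with 2 members called (all genes, 5.03%), and from midbrain medium by 1.01 ± 0.22 (adjusted p = 0.00489). The first of these hindbrain differences was -0.94 without pNE_T replicate 2 and -0.86 without pNE_H replicate 1. The second was 0.92 without pNE_M replicate 1 and 0.74 without pNE_H replicate 2, all under the size limit. From aNE to aNE_T KIT fell by 1.01 ± 0.22 (adjusted p = 0.00325). This change was -0.96 without aNE replicate 1 and -0.81 without aNE_T replicate 2, below the limit in size. Of the 8 members tested, 0 were called by limma between hindbrain and forebrain medium in aNE-derived cells (all genes, 6.6%), with 3 at an unadjusted p under 0.05.

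KITLG separated the origins at both stages. It was at 3.29 and 3.70 TPM in hPSC, 5.96 and 6.27 TPM in aNE and 20.1 and 17.8 TPM in pNE. At day 4 it was at 8.79 and 9.26 TPM in aNE_T, 8.37 and 11.8 TPM in aNE_M and 9.49 and 9.22 TPM in aNE_H. It was at 24.8 and 28.0 TPM in pNE_T, 30.5 and 27.0 TPM in pNE_M and 17.96 and 22.1 TPM in pNE_H. The 8 libraries of pNE and pNE-derived cells all lay above the 8 of aNE and aNE-derived cells, and the 2 hPSC libraries lay below all 16. KITLG in pNE exceeded that in hPSC by 2.15 ± 0.15 (adjusted p = 1.67e-07) and that in aNE by 1.48 ± 0.15 (adjusted p = 1.77e-05). At day 4 the difference between origins was 1.45 ± 0.15 (adjusted p = 9.46e-06) in forebrain medium, 1.44 ± 0.15 (adjusted p = 1.37e-05) in midbrain medium and 1.02 ± 0.15 (adjusted p = 0.000246) in hindbrain medium. The hindbrain call lay at the limit in size, with a difference of 0.998 without aNE_H replicate 2 and 0.87 without pNE_H replicate 2. The interactions for KITLG, between -0.47 (hindbrain) and -0.03 (forebrain), had adjusted p from 0.166 to 0.957 and did not pass.

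**Figure D3:**
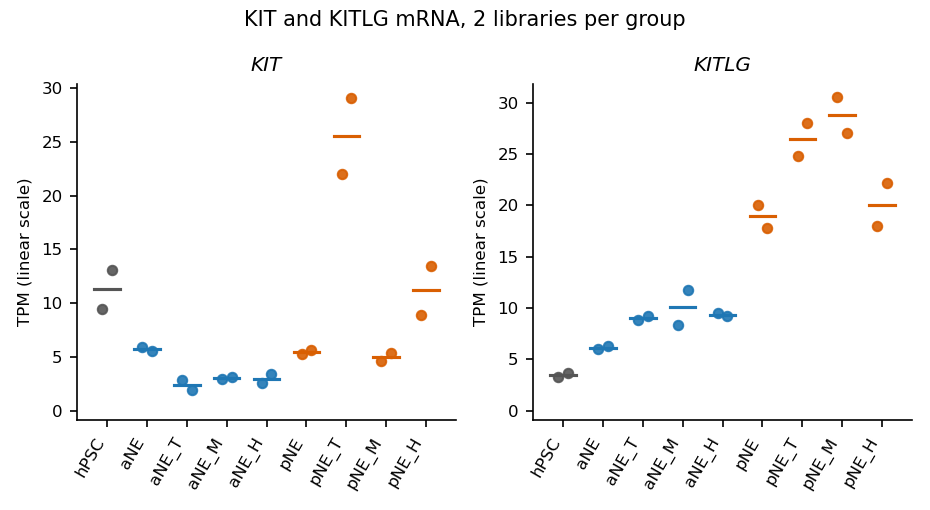
TPM (linear vertical axis) of the receptor KIT and its ligand KITLG in the 9 groups, with 1 point per library and a bar at the group mean. KIT is highest in pNE_T, at 22.0 and 29.1 TPM, and KITLG is at 17.8 TPM or more in all pNE and pNE-derived libraries and at 11.8 TPM or less in all aNE and aNE-derived ones.

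Cell types known for KIT were checked through their own genes. The melanocyte genes DCT and TYRP1 did not exceed 0.0986 and 0.312 TPM, and the germ cell gene DDX4 did not exceed 0.173 TPM in any library. PMEL, another melanocyte gene, was at 129 and 125 TPM in aNE_T and 23.6 and 18.5 TPM in pNE_T, and so was lower in the group with more KIT. The summed level of 10 neural crest and melanocyte genes, 8 of them tested, was 38.7 and 40.3 TPM in pNE, 39.1 and 41.8 TPM in pNE_T, 90.7 and 92.5 TPM in pNE_M and 57.5 and 57.8 TPM in pNE_H. It was 55.5 and 58.3 TPM in aNE, 147 and 149 TPM in aNE_T, 153 and 162 TPM in aNE_M and 124 and 127 TPM in aNE_H. Most of the aNE_M sum was PMEL, at 133 and 139 TPM, as was most of that of aNE_T. SOX10, a neural crest factor, was at 16.2 and 12.7 TPM in pNE_H and 0.394 and 0.809 TPM in pNE_T, so it was not high in the group with most KIT. SNAI2 of the same list was higher in pNE_T than in pNE, as KIT was, at 11.7 and 11.9 TPM against 2.08 and 1.92 TPM. It was also high where KIT was low, at 29.3 and 30.2 TPM in aNE_H. Of the 6 germ cell genes, DDX4 and DAZL were listed at 0 in both libraries of pNE_T and pNE_H, and most of the sum of 34.3 and 35.5 TPM in pNE_H was PRDM1, at 33.1 and 31.7 TPM. PRDM1 was also higher in pNE_T than in pNE, as KIT was, at 7.76 and 8.76 TPM against 3.06 and 3.80 TPM. SOX17 was at 1.41 and 0.928 TPM in pNE_H and 0.0382 and 0 TPM in pNE_T. Of the 3 tested germ cell genes, 1 was called higher and 1 lower in pNE_T against pNE, and the same numbers in pNE_H. The blood progenitor gene CD34 was higher in pNE-derived cells by 2.60 ± 0.19 (adjusted p = 4.5e-07), 2.68 ± 0.19 (adjusted p = 5.04e-07) and 1.83 ± 0.19 (adjusted p = 1.52e-05) in forebrain, midbrain and hindbrain medium, and the blood list had 1, 1 and 2 genes called higher and 0 lower there. The part of these genes in the levels of KIT was not tested.

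PDGFRA, KIT and KDR form a cluster on chromosome 4. On GRCh38 PDGFRA is at chr4:54229293-54298245, KIT at chr4:54657957-54740715 and KDR at chr4:55078481-55125595. The other members lie apart, FLT1 at chr13:28300346-28495128, FLT4 at chr5:180601506-180650298, PDGFRB at chr5:150113839-150155845, KITLG at chr12:88492793-88580471, PDGFA at chr7:497258-520700 and VEGFA at chr6:43770211-43786487. In the cluster the gaps are 360 kb and 338 kb, and the whole span is 896 kb. KIT and KDR showed opposite differences between the origins at day 4. In forebrain medium KDR was at 18.8 and 19.1 TPM and KIT at 2.84 and 1.91 TPM in aNE_T, while in pNE_T KDR was at 1.19 and 1.05 TPM and KIT at 22.0 and 29.1 TPM. Within 500 kb of this span RefSeq places 7 other protein-coding genes, CHIC2, GSX2, SRD5A3, TMEM165, CLOCK, PDCL2 and NMU, of which GSX2 and PDCL2 did not pass the filter. Of the other 5, only NMU, a neuropeptide gene, was called between the origins, higher in pNE by 2.18 ± 0.20 (adjusted p = 9.9e-06) at day 2 and in pNE_T by 2.10 ± 0.20 (adjusted p = 6.04e-06). CHIC2, on the PDGFRA side, had differences between origins of -0.04 at day 2 and -0.20, -0.09 and 0.38 in the 3 media.

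PDGFRB rose from day 2 to day 4 in every medium and both origins. It was at 3.71 and 7.07 TPM in hPSC, 5.24 and 4.92 TPM in aNE and 5.90 and 9.59 TPM in pNE. In the day-4 groups it was at 26.8 and 19.6 TPM in aNE_T, 16.9 and 11.3 TPM in aNE_M and 36.9 and 36.1 TPM in aNE_H. It was at 33.1 and 31.9 TPM in pNE_T, 17.8 and 19.1 TPM in pNE_M and 21.4 and 20.8 TPM in pNE_H. All 12 day-4 libraries lay above all 6 earlier ones. The rise over aNE was 1.98 ± 0.25 (adjusted p = 6.45e-05) in forebrain, 1.29 ± 0.25 (adjusted p = 0.00155) in midbrain and 2.62 ± 0.25 (adjusted p = 5.37e-06) in hindbrain medium. The rise over pNE was 1.97 ± 0.25 (adjusted p = 6.02e-05), 1.19 ± 0.25 (adjusted p = 0.00261) and 1.37 ± 0.25 (adjusted p = 0.00093) in the same media. The pNE_M call was lost without pNE replicate 1, with a rise of 0.88. In aNE-derived cells hindbrain medium exceeded midbrain medium by 1.34 ± 0.25 (adjusted p = 0.00280). The interaction in hindbrain medium was -1.26 ± 0.36 (adjusted p = 0.0309), a smaller rise in pNE-derived cells. Leaving out any of 7 of the 8 libraries (every library of aNE, aNE_H, pNE and pNE_H but pNE replicate 1) ended it, with values between -1.29 (without aNE replicate 1) and -0.95 (without pNE replicate 2). It was also lost with no filter on low values (adjusted p = 0.0655).

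PDGFRA was low and variable. It was at 1.46 and 3.22 TPM in hPSC, 3.94 and 3.15 TPM in aNE and 3.46 and 2.81 TPM in pNE. At day 4 it was at 4.63 and 2.36 TPM in aNE_T, 2.08 and 3.52 TPM in aNE_M and 6.91 and 2.16 TPM in aNE_H. It was at 7.13 and 8.61 TPM in pNE_T, 4.04 and 2.75 TPM in pNE_M and 7.50 and 4.95 TPM in pNE_H. The smallest adjusted p of its 21 comparisons was for pNE_T against pNE, with a difference of 1.10 ± 0.41 (adjusted p = 0.0541), and for pNE_T against aNE_T it was 1.02 ± 0.41 (adjusted p = 0.101). Its SE of 0.41 was the largest of the 8 tested members, so differences of about 1 lay near the threshold. The call was made without either library of aNE_H (adjusted p = 0.0208 and 0.0206 for pNE_T against pNE), and without either library of hPSC (adjusted p = 0.0484 and 0.0486). It was also made with a filter at 5 TPM (adjusted p = 0.0411), with median-ratio scaling (0.0446), with quantile normalization (0.0346) and in a fit of the compared libraries alone (0.0119). Without an aNE_H library pNE_T was also called against aNE_T (adjusted p = 0.0419 and 0.0416) and pNE_M against pNE_T (adjusted p = 0.0328 and 0.0325). PDGFRA marks oligodendrocyte precursors, and OLIG2, which defines them, did not exceed 0.701 TPM in any library. In GENCODE 29 a protein-coding gene on the same strand, AC058822.1, which is not among the RefSeq neighbours above, overlaps PDGFRA, and reads shared with it could have been split by the authors' tool.

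PDGFA, a ligand of PDGFRA, was lower at each later stage. It was at 44.2 and 42.9 TPM in hPSC, 23.3 and 23.2 TPM in aNE and 17.5 and 20.5 TPM in pNE. In the day-4 groups it was at 8.76 and 8.78 TPM in aNE_T, 5.89 and 4.25 TPM in aNE_M and 4.52 and 4.27 TPM in aNE_H. It was at 10.8 and 7.62 TPM in pNE_T, 9.35 and 7.26 TPM in pNE_M and 2.50 and 2.57 TPM in pNE_H. The ranges of day 0, day 2 and day 4 did not overlap. Against hPSC the difference was -0.87 ± 0.17 (adjusted p = 0.00108) in aNE, under the size limit, and -1.16 ± 0.17 (adjusted p = 0.000133) in pNE. From day 2 to day 4 PDGFA was called lower in 5 of 6 comparisons. In aNE-derived cells the differences were -1.31, -2.01 and -2.17 in forebrain, midbrain and hindbrain medium. In pNE-derived cells they were -0.98 ± 0.17 (adjusted p = 0.000572), which missed the size limit, -1.11 ± 0.17 (adjusted p = 0.000185) and -2.50 ± 0.17 (adjusted p = 1.23e-07). The pNE_T difference was called without pNE replicate 1 (-1.09) or pNE_T replicate 1 (-1.21). The pNE_M call was lost without pNE_M replicate 2, at -0.95. In pNE-derived cells hindbrain medium gave less PDGFA than forebrain medium by 1.51 ± 0.17 (adjusted p = 3.52e-05) and less than midbrain medium by 1.39 ± 0.17 (adjusted p = 6.2e-05).

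**Figure D4:**
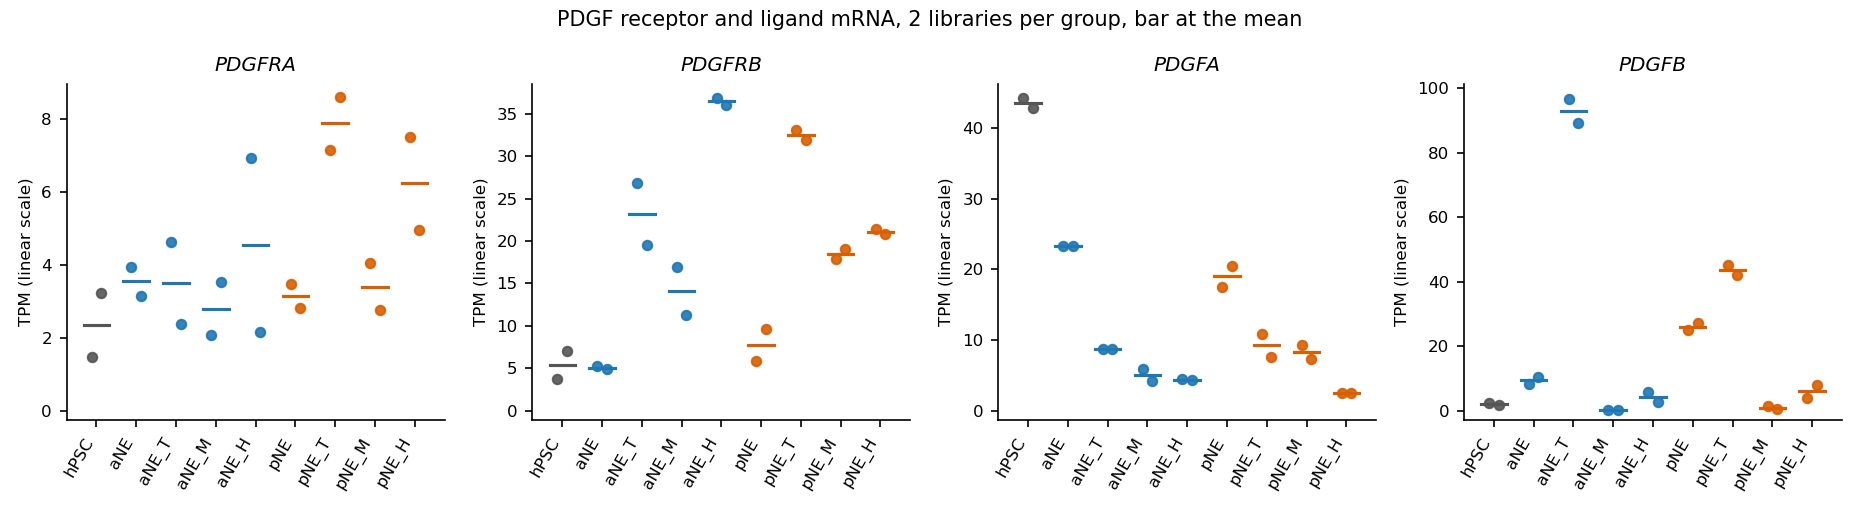
TPM (linear vertical axes, which differ between panels) of PDGFRA, PDGFRB, PDGFA and PDGFB in the 9 groups, with 1 point per library and a bar at the group mean. PDGFRB lies at 11.3 TPM or more in all day-4 libraries and at 9.59 TPM or less before, PDGFA is lower at day 4 than in hPSC, and PDGFB is highest in forebrain medium.

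PDGFB, the main ligand of PDGFRB and one of the other PDGF genes read beside the members, was high in forebrain medium and near 0 in midbrain medium. It was at 2.50 and 1.88 TPM in hPSC, 8.35 and 10.4 TPM in aNE and 25.0 and 27.2 TPM in pNE. It was at 96.6 and 89.1 TPM in aNE_T, 0.0795 and 0.0642 TPM in aNE_M and 5.88 and 2.71 TPM in aNE_H. It was at 45.1 and 42.0 TPM in pNE_T, 1.31 and 0.648 TPM in pNE_M and 4.06 and 7.97 TPM in pNE_H. Midbrain against forebrain medium gave -6.45 ± 0.29 (adjusted p = 2.48e-09) in aNE-derived and -4.51 ± 0.29 (adjusted p = 1.05e-07) in pNE-derived cells. At day 2 PDGFB was higher in pNE by 1.39 ± 0.29 (adjusted p = 0.00614), and in forebrain medium it was lower in pNE_T by 1.08 ± 0.29 (adjusted p = 0.0179), with an interaction of -2.47 ± 0.41 (adjusted p = 0.00123). PDGFB thus had, like KDR, more RNA in pNE at day 2 and more in aNE-derived cells in forebrain medium. In the other media it differed from KDR. It was higher in pNE_M than in aNE_M, and the libraries of pNE_H and aNE_H overlapped. PDGFC, a ligand of PDGFRA, was at 14.8 and 21.9 TPM in aNE_M and 2.05 and 2.20 TPM in aNE_T, a difference of 2.61 ± 0.23 (adjusted p = 1.81e-06) in the direction opposite to PDGFB. PDGFD and PDGFRL lay between 1.91 and 8.49 TPM in all libraries.

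Genes of mural cells and mesenchyme, where PDGFRB is best known, were read beside it. Of 9 genes (ACTA2, RGS5, CSPG4, NOTCH3, ANPEP, COL1A1, COL1A2, DCN, LUM) 7 passed the filter. Their summed level was 187 and 189 TPM in hPSC, 369.8 and 393 TPM in aNE and 353 and 419.6 TPM in pNE. It was 601 and 632 TPM in aNE_T, 362 and 394 TPM in aNE_M and 479 and 514 TPM in aNE_H. It was 1098 and 1105 TPM in pNE_T, 577 and 619 TPM in pNE_M and 709 and 716 TPM in pNE_H. In pNE_T most of it was ACTA2 (365 and 381 TPM), COL1A2 (301 and 348 TPM) and RGS5 (324 and 264 TPM). In pNE-derived cells this sum was above that of pNE in every medium, as PDGFRB was. COL1A1 went the other way, from 131 and 171 TPM in pNE to 31.3 and 31.3 TPM in pNE_T. It was at 50.3 and 47.9 TPM in pNE_M and 27.6 and 22.5 TPM in pNE_H. Of the 7 tested genes, 5, 3 and 2 were called higher against pNE in forebrain, midbrain and hindbrain medium, and 1 lower in each. The shares of all genes called there were 10.2%, 12.7% and 12.3%. Against aNE, 2 were called higher and 1 lower in aNE_T (all genes, 9.03%). These numbers were 1 and 2 in aNE_M (12%) and 2 and 0 in aNE_H (10.1%). In aNE_M the sum overlapped that of aNE while PDGFRB was higher. CSPG4 and ANPEP, which mark pericytes, did not exceed 1.52 TPM after day 0. The part of these genes in the rise of PDGFRB was not tested.

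**Figure D5:**
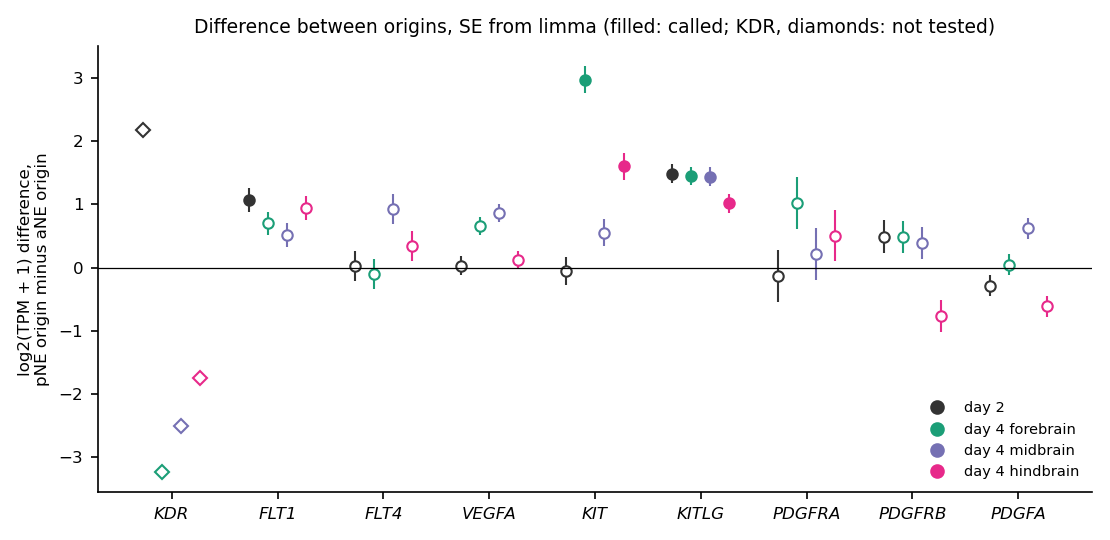
Difference on the log2(TPM + 1) scale (vertical axis) of pNE or pNE-derived minus aNE or aNE-derived cells for the 9 members (horizontal axis), at day 2 and at day 4 in the 3 media, with SE from limma. Filled points were called, KDR (diamonds) was not tested and has no SE, and KITLG lies between 1.02 and 1.48 in all 4 comparisons.

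In the plot of differences between origins, KDR lies above 0 at day 2 and below 0 in all 3 media of day 4, which is what it was picked for. KIT and PDGFRA lie at -0.05 and -0.13 at day 2, near 0, and above 0 in all 3 media. The 8 tested members had a median difference of 0.03 at day 2 against -0.01 over all genes. At day 4 their medians were 0.68, 0.59 and 0.42 in forebrain, midbrain and hindbrain medium, against -0.05, -0.04 and -0.04. The hindbrain medium was the only one in which members with an adjusted p under 0.05 were lower in pNE-derived cells. These were PDGFRB, by 0.76 ± 0.25 (adjusted p = 0.0487), and PDGFA, by 0.61 ± 0.17 (adjusted p = 0.0196), both under the size limit.

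Among the remaining type III receptor genes, the CSF1 and FLT3 branches, receptors were near 0 and 1 ligand was high. CSF1R did not exceed 0.609 TPM and FLT3 did not exceed 1.18 TPM. CSF1, the macrophage growth factor, was at 4.36 and 4.81 TPM in hPSC, 21.3 and 17.5 TPM in aNE and 30.3 and 34.1 TPM in pNE. Its rise over hPSC was 1.86 ± 0.12 (adjusted p = 8.47e-08) in aNE and 2.57 ± 0.12 (adjusted p = 3.7e-09) in pNE. At day 4 it was higher in pNE-derived cells by 1.12 ± 0.12 (adjusted p = 1.37e-05), 1.00 ± 0.12 (adjusted p = 5.11e-05) and 1.25 ± 0.12 (adjusted p = 5.59e-06) in forebrain, midbrain and hindbrain medium. IL34, the other ligand of CSF1R, was at 5.10 and 3.30 TPM in hPSC and at most 0.461 TPM elsewhere. Of these 5 genes 4 passed the filter.

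Few calls fell on the adaptors and enzymes that the receptors share. All 15 (PLCG1, PLCG2, PIK3R1, PIK3R2, PIK3CA, GRB2, SHC1, SOS1, GAB1, PTPN11, CBL, SRC, NCK1, CRK, SH2B3) were tested. Against hPSC, limma called 0 in aNE, with 4 at an unadjusted p under 0.05 and a median of 0.01, and 0 in pNE, with 8 at an unadjusted p under 0.05 and a median of 0.19. Between pNE and aNE at day 2 it called 0, with 8 at an unadjusted p under 0.05. Over all 21 comparisons 14 of 315 (4.44%) tests of these genes were calls, where all genes gave 8.58%. The calls were 41 of 105 (39.0%) for the other VEGF genes, 30 of 84 (35.7%) for the other PDGF genes, 8 of 84 (9.52%) for the CSF1 and FLT3 branches and 51 of 252 (20.2%) for the hypoxia genes. Among marker lists they were 52 of 168 (31.0%) for endothelium, 58 of 147 (39.5%) for mural cells, 40 of 126 (31.7%) for mesoderm and 13 of 84 (15.5%) for blood. They were 66 of 168 (39.3%) for neural crest, 22 of 63 (34.9%) for germ cells, 32 of 84 (38.1%) for pluripotency and 62 of 126 (49.2%) for neural ectoderm. Many of these comparisons share libraries, so the tests are not independent. The lists were chosen with earlier results of these data known, so their shares do not show that a list is unusual. SH2B3, an adaptor that dampens KIT and related receptors, was at 52.1 and 48.3 TPM in pNE_H against 15.3 and 13.4 TPM in aNE_H, a difference of 1.74 ± 0.12 (adjusted p = 3.64e-07). In forebrain medium it was higher in pNE_T by 1.13 ± 0.12 (adjusted p = 1.74e-05). PIK3R1, a regulatory subunit of PI3 kinase, was higher in aNE_M and aNE_H than in aNE, by 1.19 ± 0.18 (adjusted p = 0.00018) and 1.16 ± 0.18 (adjusted p = 0.000278).

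Likeness of pattern was measured as Pearson's r over the 9 group means of log2(TPM + 1), among 12425 genes with at least 5 TPM in a group. These are descriptions over points that share libraries, and they carry no test. The 5 genes most like KDR were TXNDC17 (r = 0.940), GFPT2 (r = 0.934), SH3PXD2A (r = 0.927) and the olfactory receptor pseudogenes OR2A20P and OR2A9P (r = 0.925). The values of the last 2 were the same, so they count as 1 pattern and are uncertain as near-identical copies. TXNDC17 varied little, from 183 to 273 TPM over the group means. GFPT2, an enzyme of the hexosamine pathway, averaged 33.8 TPM in aNE, below its 54.4 TPM in pNE, and 47.0 TPM in aNE_T, above its 24.2 TPM in pNE_T, the order that KDR had. In aNE_M it averaged 30.4 TPM, below its level in aNE, while KDR was higher in aNE_M than in aNE. The genes most like FLT1 were KLK10 and SCGB3A2 (r = 0.996 and 0.978), and those most like KITLG were CRABP2 and ARFRP1 (r = 0.961 and 0.959). Those most like KIT were STARD10 and EDEM2 (r = 0.954 and 0.934), and those most like VEGFA were CENPQ and ASNS (r = 0.973 and 0.972). CRABP2, a retinoic acid binding protein, averaged 2036 TPM in pNE, above its 548 TPM in aNE and 122 TPM in hPSC. Among the members themselves the highest r was between FLT1 and PDGFA (0.831) and the lowest between PDGFRB and PDGFA (-0.800), while KDR had r = 0.565 with FLT1 and -0.719 with KITLG.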

How the data were processed

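RNA was measured in 18 libraries of the H1 line. The authors deposited 1 table of TPM values, 1 column per library. The submitters' processing notes list kallisto, Trim Galore, FastQC, bcl2fastq, deepTools and the build hg38, without roles or versions, and the annotation is not given in the sources used here. Strand use is not given either, and GENCODE 29 places antisense genes over KDR, KITLG and VEGFA, so such reads cannot be told apart. TPM keeps no depth, so no counting error is given.

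From these values log2(TPM + 1) was computed for 17033 genes that reached 1 TPM in 2 or more libraries. In R 4.3.3, limma 3.58.1 fitted 1 mean per group to all 18 libraries (9 residual degrees of freedom), with a variance trend. P-values were two-sided and adjusted by Benjamini-Hochberg over all tested genes. In simulated data with normal noise, the fit recovered most of the changes that were placed above the size limit. No differences at or under the size limit, and none in genes of low mean level, were placed. Differences on this scale understate those of low genes.

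The members and lists were chosen with earlier results of these data known. Other genes were named from fixed lists (VEGF and PDGF families, type III receptor relatives, shared adaptors, hypoxia response, markers), at most 4 called genes a list and comparison with at least 5 TPM and separate groups, and by likeness. Other marker genes (such as CDH5, ERG, CD34, PMEL, SOX10, SNAI2 and OLIG2) were named after their values were seen. A result on 1 further marker gene is not reported here. Promoters are from a set built on RefSeq starts (GRCh38.p14), and this set held 7 of the 9 members. The alternatives tried were another pseudocount (0.1), a fit of all genes, a filter at 5 TPM, scaling by median ratios, quantile normalization, fits of the compared libraries, calls by p alone, the replicate block and leaving out each library.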

Additional observations from a re-analysis of the deposited data

Results flagged for a closer look

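The response from day 2 to day 4 differed between the origins, by a test of the difference itself, for KIT in forebrain medium at 3.03 ± 0.31 (adjusted p = 1.84e-05), KIT in hindbrain medium at 1.66 ± 0.31 (adjusted p = 0.00230) and PDGFRB in hindbrain medium at -1.26 ± 0.36 (adjusted p = 0.0309). The PDGFRB value lost its call when any of 7 of its 8 libraries was left out. Plating density differed by day and by origin, so its part in these differences cannot be told apart. For KDR every library of aNE-derived cells lay above aNE and every library of pNE-derived cells below pNE. The differences of the changes were -5.42 in forebrain, -4.69 in midbrain and -3.93 in hindbrain medium, and were not tested because KDR was picked for them.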

How the results depend on the processing

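The 8 tested members had 46 calls in 168 tests (27.4%), where all genes gave 8.58%, and many of these tests share libraries. The members were chosen with earlier results of these data known, so these shares do not show that the set is unusual. All 46 called differences kept their direction under every alternative run. All 46 stayed called with a stricter filter of 5 TPM, scaling by median ratios, quantile normalization, fits of only the libraries compared, and the replicate block. FLT1 between pNE and aNE was lost with a pseudocount of 0.1, and the hindbrain interaction of PDGFRB without a filter. Leaving out a library ended the call in 18 of 196 refits with a library of the groups compared; where this left 1 library in a group, that library was assumed to vary like the other groups. The 2 replicate numbers were not taken as a pairing, because over 36 pairs of groups the deviations of same-numbered libraries correlated with r from -0.09 to 0.08. The replicate block left the counts of calls at 6 (entry), 7 (origin), 21 (day 2 to day 4), 3 (interactions) and 9 (media).

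Counts of calls moved most when the size limit was dropped. By adjusted p alone there were 10 calls in place of 6 on entry, 15 in place of 7 between origins, 34 in place of 21 from day 2 to day 4, 5 in place of 3 among interactions and 20 in place of 9 between media. The share of all genes called by p alone was not computed, so these counts cannot be read as particular to the members. Leaving out single libraries gave 6 to 8 on entry, 6 to 8 between origins, 20 to 22 from day 2 to day 4, 2 to 5 among interactions, the 5 without aNE_M replicate 1, and 8 to 10 between media. With 2 libraries a group, differences near the size limit of 1 moved in and out of the calls, and levels near 0 TPM carry an unknown counting error.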
